A study of Mus musculus with 24 samples.

Results

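The change of the corticosterone effect between the first and the fifth hour of rest was read from 16 of the 24 two-color arrays, the 8 arrays of the first and the 8 arrays of the fifth hour of the light phase. On each array 1 control animal (Cy3) was paired with 1 corticosterone-treated animal (Cy5), and the RNA came from the whole hippocampus. All animals were male Swiss-Webster mice, an outbred stock, stated to be 12 weeks of age, and no samples were pooled. They were moved to individual cages at about that age and habituated for weeks before treatment, so they were older when sampled. Corticosterone-treated animals drank 100 µg/ml corticosterone with 0.45% hydroxypropyl-β-cyclodextrin through the 12 h of the dark phase, and control animals drank the same cyclodextrin in water, so that both groups carried the vehicle. Thus, each hour was represented by 16 animals, which were sacrificed at that hour and not followed over time. Each group held animals of several litters, and the control animals of an hour were brothers of the treated ones, so the 8 animals of a group are not all unrelated, and litter was not fitted. The 8 arrays of the ninth hour entered the fit and are given as values only. The quantity of interest was the log2 fold change of corticosterone-treated over control animals in the fifth hour minus that in the first hour, called here the difference. Cy5 marked the corticosterone-treated animal on all arrays, so that a constant preference of a probe for one dye adds to the fold change of each hour and cancels in the difference. Therefore, fold changes of a single hour are given as values, and no test of them is used here. Their standard errors are the same in each hour for a probe with no missing value and are smaller than that of its difference.

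Corticosterone is the main glucocorticoid of rodents. It binds the glucocorticoid and mineralocorticoid receptors, which are both abundant in the hippocampus, and the bound glucocorticoid receptor enters the nucleus, binds DNA at glucocorticoid response elements and recruits or displaces other factors. Among its best-known direct targets are genes that feed back on the hormone signal (*Fkbp5*, *Tsc22d3*, *Nfkbia*), a kinase of ion transport and cell survival (*Sgk1*), genes that shift fuel use (*Pdk4*) or slow growth (*Ddit4*, *Cdkn1a*) and metallothioneins (*Mt1*, *Mt2*). When the hormone leaves the circulation, transcription of such genes can stop within minutes, and the level of the mRNA then depends on its stability.

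The median spot of the 16 arrays had an intensity of 90 to 105 in the Cy3 and of 136 to 185 in the Cy5 channel, and 60.8 to 67.2% of the spots in Cy3 and 64.0 to 73.5% in Cy5 were well above background. There were 0 saturated spots. The number of arrays limits the precision of the values, with a median standard error of the difference of 0.11 on the log2 scale for probes with a mean intensity of 50 or more. All 7 neuron markers and all 6 markers of hippocampal subfields had an intensity of 50 or more, as did 5 of 7 choroid plexus and 2 of 4 blood markers.

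Of 56605 unique probes, 22 displayed a significant difference (limma separate channel test, adjusted p under 0.05), which is 0.0389% of those tested. The difference was negative for 20 of them (0.0353% of all probes) and positive for 2 (0.00353%). At an unadjusted p under 0.05 there were 2528 probes (4.47%), 1384 of them lower (2.45%) and 1144 higher (2.02%), and the median difference over all probes was -0.0022. All 20 negative probes had an intensity of 50 or more and a gene name, and they represented 18 genes. The *Gm11025* probe reached that intensity only through treated animals. Its means in the 2 hours were 82.7 and 53.1 in treated and 38.1 and 41.2 in control animals. Differences of the 20 probes lay between -1.24 and -0.42 with a median of -0.73. In the first hour their log2 fold changes were 0.46 to 1.5, and in the fifth hour -0.29 to 0.53, so that a median of 18.2% of the first-hour value was left. A dye preference does not cancel in a share of the first-hour value, so such shares are descriptions. The corticosterone-treated animal had the higher signal on all 8 arrays of the first hour for 19 of them and on all 8 arrays of the fifth hour for 4. The ratios of the 2 hours did not overlap for 6 of the 20, and 0.0283% of all probes had no overlap. Nothing is read from this count, because the same ratios chose the 20 probes. In bulk tissue, a lower signal from fewer cells of a type cannot be told apart from less RNA per cell.

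**Figure D1:**
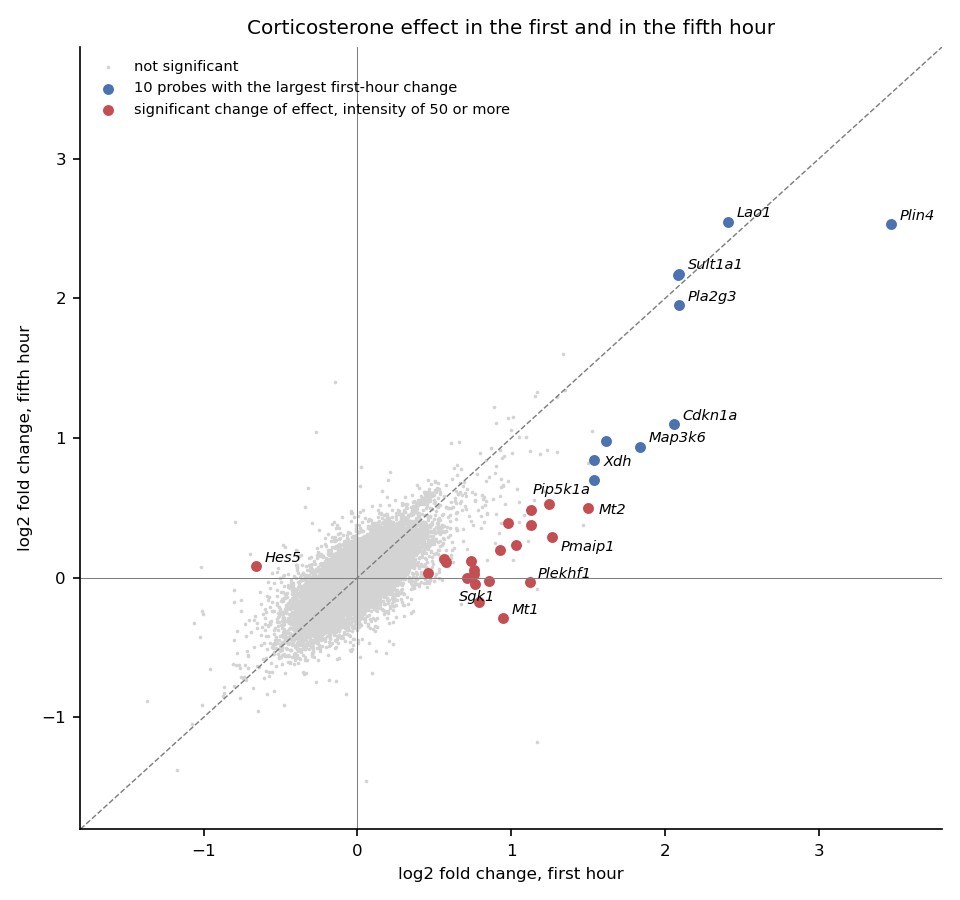
Log2 fold change of corticosterone-treated over control animals in the first (x axis) and the fifth hour (y axis) for probes with an intensity of 50 or more. The 21 red probes with a significant difference lie away from the dashed line of equal values, with 20 below it and *Hes5* above it, while 10 blue probes with the largest first-hour change spread from the line (*Sult1a1*, *Lao1*) to well below it (*Plin4*, *Cdkn1a*). The significant dim probe of *Trim38* is not drawn.

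Compared with the first hour, corticosterone-treated animals of the fifth hour displayed lower signals for all 20 of these probes, whereas 1 of them (*Mt2*) displayed a significant change in control animals. Over all probes, the comparison of the fifth with the first hour gave 309 significant probes in corticosterone-treated animals (0.546% of all), of which 166 were lower (0.293% of all), and 3 in control animals (0.0053%). Without slides 1, 2 and 3 the count in treated animals was 150, 114 and 49, and in control animals it ran from 0 to 10 over the alternatives. These comparisons use the same animals as the difference and are not independent of it. The log2 change from the first to the fifth hour was -1.28 to -0.35 in corticosterone-treated and -0.23 to 0.61 in control animals. All 21 named probes kept the sign of their difference on each of the 3 slides. The same arrays chose these probes, so this is a description and no independent evidence.

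**Figure D2:**
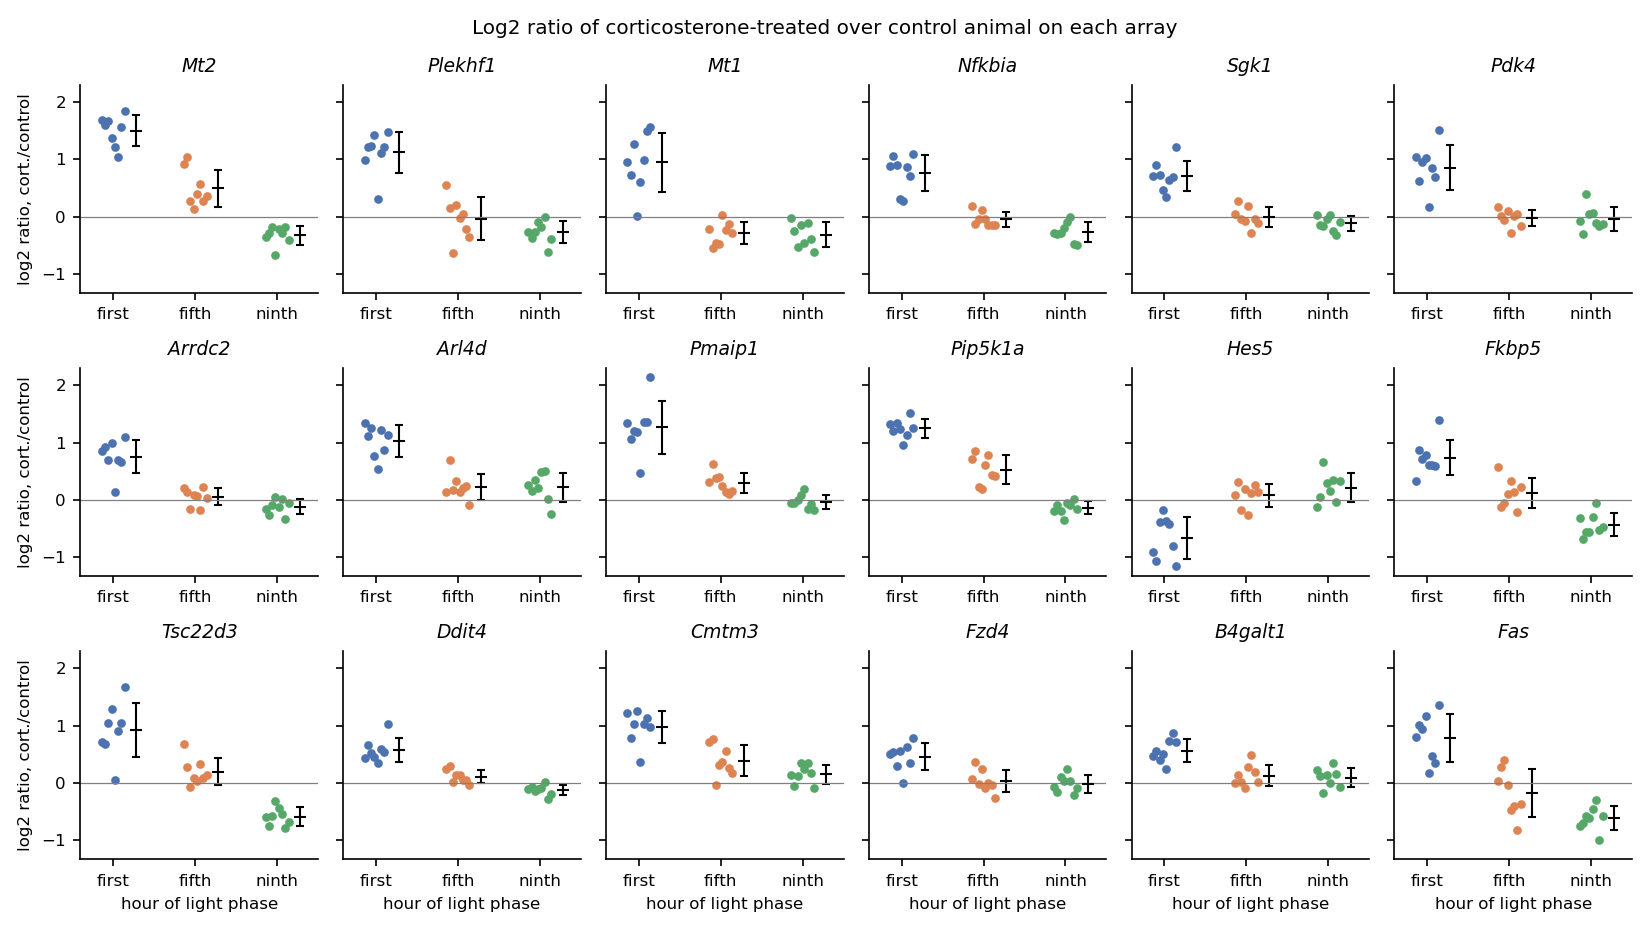
Log2 ratio of the corticosterone-treated over the control animal on each array (y axis) by hour of the light phase (x axis) for 18 genes with a significant difference, 1 significant probe per gene (for *Mt1* and *Fkbp5* the dimmer one); *Gm11025* and *Trim38*, close to background, are not drawn. Each point is an array, and bars are the mean ± SD of 8 arrays. Ratios of *Sgk1* run from 0.35 to 1.22 in the first and from -0.29 to 0.27 in the fifth hour, and those of *Hes5* from -1.16 to -0.18 and from -0.26 to 0.31.

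Of the genes that feed back on the hormone signal, *Tsc22d3*, *Nfkbia* and 1 probe of *Fkbp5* had a significant negative difference. *Tsc22d3* codes GILZ, a leucine zipper protein that mediates anti-inflammatory actions of glucocorticoids. Its brightest probe had a log2 ratio of 0.050 to 1.67 (median 0.98) on the arrays of the first hour and of -0.063 to 0.68 (median 0.12) on those of the fifth. The ranges overlapped through 1 first-hour array at 0.050, and the difference was -0.73 ± 0.14 (SE, n = 8 arrays per hour, adjusted p = 0.00666). A second *Tsc22d3* probe gave -0.64 ± 0.13 (SE, adjusted p = 0.0232), with 1.13 in the first and 0.49 in the fifth hour (95% interval 0.30 to 0.68), and a further, dim probe with an intensity of 21.5 gave 0.026. In the ninth hour the brightest probe stood at -0.58, below control animals on 8 of 8 arrays.

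*Nfkbia* codes IκBα, which holds NF-κB in the cytoplasm. Intensities of corticosterone-treated animals were 2098, 3240.2 and 4299 (lowest, median, highest) in the first and 1473, 1600.5 and 1979 in the fifth hour. Those of control animals were 1517, 1839 and 2015 in the first and 1554, 1677 and 1989 in the fifth hour. Thus, all treated animals of the first hour lay above all control animals, and by the fifth hour the groups overlapped. The log2 ratio went from 0.76 to -0.042, a difference of -0.81 ± 0.11 (SE, adjusted p = 1.58e-05), and the arrays of the 2 hours did not overlap. Of the 13 genes listed as NF-κB subunits and inhibitors, *Nfkbia* alone was significant (1 of 22 probes, against 0.0389% of all), and the brightest probes of the 11 members with an intensity of 50 or more had a median difference of 0.053. For *Nfkbid*, *Nfkbiz* and *Tnfaip3*, which code other inhibitors of the pathway, the differences were 0.15 ± 0.084, 0.22 ± 0.12 and 0.081 ± 0.11.

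*Fkbp5* codes a cochaperone that lowers the affinity of the glucocorticoid receptor for its hormone. Its probes did not give the same result. A probe with an intensity of 195 went from 0.74 to 0.12, with a difference of -0.61 ± 0.11 (SE, adjusted p = 0.0019). The brighter probe, with an intensity of 2854, went from 0.60 to 0.31, and its difference of -0.29 ± 0.12 was not significant (adjusted p = 0.926, 95% interval -0.53 to -0.061). In the brighter probe treated animals were above control animals on 8 of 8 arrays in both hours. Both probes were below control animals on 8 of 8 arrays in the ninth hour, at -0.43 and -0.28. The 16 genes listed as receptors and cochaperones had a median difference of 0.015, and the dimmer *Fkbp5* probe was the single significant one among their 31 probes, against 0.0389% of all. The calls of *Nfkbia*, *Fkbp5* and *Tsc22d3* were lost without slide 3 (highest adjusted p over all alternatives 0.147, 0.967 and 1), and those of *Fkbp5* and *Tsc22d3* also without slide 2. Both *Tsc22d3* calls were also lost in a fit of the 16 arrays alone (adjusted p = 0.103 and 0.166), that of the brightest probe with the authors' log2 ratios and that of the second with an offset of 0. On slide 1 the *Tsc22d3* differences were -0.23 and -0.11, against -1.02 and -0.90 on slide 3.

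*Sgk1* codes a serum- and glucocorticoid-regulated kinase of ion transport. Treated animals had intensities of 6299, 7972 and 11127 (lowest, median, highest) in the first and of 3336, 4553 and 5322 in the fifth hour, against medians of 4854 and 4679.9 in control animals. The highest control animal of the first hour, at 5259, lay below the lowest treated animal. The log2 ratio was 0.71 ± 0.073 (SE) in the first and -0.0050 ± 0.073 in the fifth hour. The difference of -0.72 ± 0.10 was significant (adjusted p = 2.5e-05), as in all 16 alternatives, of which 1 leaves p-values unchanged. Of 6 promoter windows that RefSeq gives for *Sgk1* (250 bases before to 50 after a start, build GRCm38.p6), 1 holds a full glucocorticoid response element, and it is shown because such an element is rare. The capitals mark the match to this element, GNACA and TGTNC with 3 bases between them, which starts 188 bases before the transcription start.
Sgk1 promoter, chr10:21993640-21993939, plus strand: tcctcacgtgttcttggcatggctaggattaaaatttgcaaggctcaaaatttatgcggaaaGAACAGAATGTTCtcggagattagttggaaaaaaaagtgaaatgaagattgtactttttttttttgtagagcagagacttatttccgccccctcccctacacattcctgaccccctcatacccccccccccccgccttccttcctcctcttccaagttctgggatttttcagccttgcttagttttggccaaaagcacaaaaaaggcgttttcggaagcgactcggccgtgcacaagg

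A significant negative difference was also found for *Pdk4*, which codes a kinase that closes pyruvate dehydrogenase and spares glucose, and for *Arrdc2*, an α-arrestin gene. The log2 ratio of *Pdk4* ran from 0.16 to 1.51 (median 0.90) in the first and from -0.28 to 0.16 (median 0.0063) in the fifth hour. These ranges did not overlap, and the difference was -0.88 ± 0.12 (SE, adjusted p = 2.5e-05). Intensities of treated animals averaged 940.3 ± 264 (SD, n = 8) and then 511 ± 50.2, while control animals were at 507 ± 43.5 and 519 ± 43.9. The *Arrdc2* probes, both of the same transcript, gave differences of -0.70 ± 0.11 and -0.73 ± 0.12 (SE, adjusted p = 0.000115 and 0.000249), with 7.06% and 3.96% of the first-hour value left. Both *Arrdc2* calls were lost without slide 3 (highest adjusted p 0.18), and that of the second probe also without slide 1. In the list of 18 genes of lipid, ketone and glucose metabolism, *Pdk4* alone was significant (1 of 32 probes, against 0.0389% of all), and the median difference was -0.0086. *Slc2a1*, the gene of the glucose transporter of the blood–brain barrier, had a difference of -0.60 ± 0.13 (adjusted p = 0.0581).

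*Plekhf1*, *Pmaip1*, *Fas* and *Ddit4* had a significant negative difference. *Plekhf1* codes a lysosomal and endosomal protein linked to cell death. Its treated animals had intensities of 107.1, 165 and 246 (lowest, median, highest) in the first and of 51, 67.5 and 98.6 in the fifth hour, and control medians were 78.6 and 69.4. Treated animals of the fifth hour were thus spread around the control values, and the difference was -1.15 ± 0.14 (SE, adjusted p = 1.74e-06). *Pmaip1*, which codes the BH3-only protein NOXA, went from a log2 ratio of 1.27 to 0.29, with treated animals higher on 8 of 8 arrays in both hours (difference -0.97 ± 0.15, adjusted p = 0.000249). The death receptor gene *Fas* had ratios of 0.18 to 1.36 in the first and of -0.82 to 0.40 in the fifth hour. Its difference of -0.96 ± 0.21 was close to the threshold (adjusted p = 0.0467), and a dimmer *Fas* probe with an intensity of 17.8 gave 0.66 ± 0.29 (adjusted p = 1). *Ddit4*, which codes REDD1, an inhibitor of mTOR complex 1, went from 0.58 to 0.11 without overlap of the arrays (difference -0.46 ± 0.092, adjusted p = 0.0107). Leaving out slide 3 ended the calls of *Pmaip1*, *Fas* and *Ddit4* (highest adjusted p 0.161, 1 and 1), leaving out slide 2 those of *Fas* and *Ddit4*, and leaving out slide 1 that of *Fas*. In a fit of the 16 arrays alone the calls of *Fas* and *Ddit4* were lost (adjusted p = 0.189 and 0.167), and with an offset of 0 that of *Fas*.

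Of the 31 genes listed for restraint of growth and proliferation, 3 were significant (*Plekhf1*, *Fas* and *Ddit4*, all lower). By probes this was 3 of 43, where 0.0353% of all probes were significant in that direction. The list was chosen with earlier results of these data known, so its counts are no independent evidence. Over its 30 members with an intensity of 50 or more the median difference was -0.058, and 22 were below 0. At an unadjusted p under 0.05, 9 of these 30 were lower and 2 were higher, against 2.45% and 2.02% of all probes. The higher members were *Wnt7a*, the gene of a Wnt ligand (0.24 ± 0.096), and *Ddit4l*, a relative of *Ddit4* (0.31 ± 0.15). *Cdkn1a*, which codes the cell cycle inhibitor p21, had a difference of -0.96 ± 0.25 (adjusted p = 0.149) and *Depp1*, a target of FOXO factors, one of -1.25 ± 0.30 (adjusted p = 0.067). Their standard errors are larger than those of all 21 significant probes with an intensity of 50 or more. The sestrin genes *Sesn1*, *Sesn2* and *Sesn3* lay between -0.11 and -0.0076.

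*Mt2*, which codes a metallothionein that binds zinc and copper, had the smallest adjusted p of all probes and was the gene in which control animals moved too. Treated animals had intensities of 84700.2, 97707 and 109768 (lowest, median, highest) in the first and of 64883, 70765 and 90444 in the fifth hour. Control animals had 29132, 31851 and 43802 and then 39906, 52429.5 and 61099.9. Treated animals were above all control animals of their hour in both hours, and the gap narrowed from both sides. From the first to the fifth hour *Mt2* fell by 0.39 ± 0.092 (SE, log2) in corticosterone-treated animals (adjusted p = 0.0218) and rose by 0.61 ± 0.092 in control animals (adjusted p = 0.000773). The log2 ratio went from 1.5 to 0.50, a difference of -1.0 ± 0.11 (adjusted p = 1.72e-07), with 33.2% of the first-hour value left. In the ninth hour it was -0.32, with treated animals lower on 8 of 8 arrays.

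*Mt1* lies beside *Mt2* on the same strand. Its bright probe, with an intensity of 74159, had ratios of 0.88, 1.18 and 1.57 (lowest, median, highest) in the first and of 0.68, 0.87 and 1.21 in the fifth hour. Treated animals remained above control animals on all of these arrays, and the difference of -0.30 ± 0.081 was not significant (adjusted p = 0.271, 95% interval -0.46 to -0.13). From the first to the fifth hour this probe changed by -0.070 ± 0.067 (SE, log2) in treated and by 0.23 ± 0.067 in control animals. A second *Mt1* probe, annotated to another transcript identifier, with an intensity of 108, had a difference of -1.24 ± 0.16 (adjusted p = 1.58e-05) and went from 0.95 to -0.29. The 95% intervals of these 2 *Mt1* probes do not overlap, and the difference between probes was not tested. The bright *Mt1* probe and the *Mt2* probe are brighter than 99.9% and 99.8% of probes, where quantile normalization sets values by rank. Their highest treated intensity of the first hour was 109768 for both. Whether this narrows their ratios was not tested. Which transcript each of them detects was not settled here, and the same holds for the probes of *Fkbp5* and *Pip5k1a*. Of the other genes of metal binding and zinc transport, *Mt3* gave -0.041 ± 0.17 and the zinc exporter gene *Slc30a1* 0.023 ± 0.063, and neither was significant. Both promoters are shown because the neighbouring genes differ in 1 motif, a glucocorticoid response element in *Mt1* alone, while both hold metal response cores (4 in *Mt2* and 3 in *Mt1*). In *Mt1* the capitals mark a match to the glucocorticoid response element, which starts 94 bases before the transcription start. In *Mt2* they mark 4 matches to the core of metal response elements, TGCACNC or TGCGCNC, on either strand.
Mt1 promoter, chr8:94178839-94179138, plus strand: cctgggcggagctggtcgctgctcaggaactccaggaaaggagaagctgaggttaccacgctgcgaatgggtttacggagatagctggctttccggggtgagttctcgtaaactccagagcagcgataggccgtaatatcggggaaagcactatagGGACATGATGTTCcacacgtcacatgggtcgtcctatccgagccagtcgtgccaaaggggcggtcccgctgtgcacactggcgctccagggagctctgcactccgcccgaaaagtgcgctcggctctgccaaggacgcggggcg
Mt2 promoter, chr8:94172368-94172667, plus strand: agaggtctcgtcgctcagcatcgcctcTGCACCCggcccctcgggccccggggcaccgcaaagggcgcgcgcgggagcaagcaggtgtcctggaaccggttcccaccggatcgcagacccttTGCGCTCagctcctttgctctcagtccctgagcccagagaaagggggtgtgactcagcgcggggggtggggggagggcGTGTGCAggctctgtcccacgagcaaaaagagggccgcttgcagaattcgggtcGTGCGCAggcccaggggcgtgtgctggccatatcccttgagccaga

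**Figure D3:**
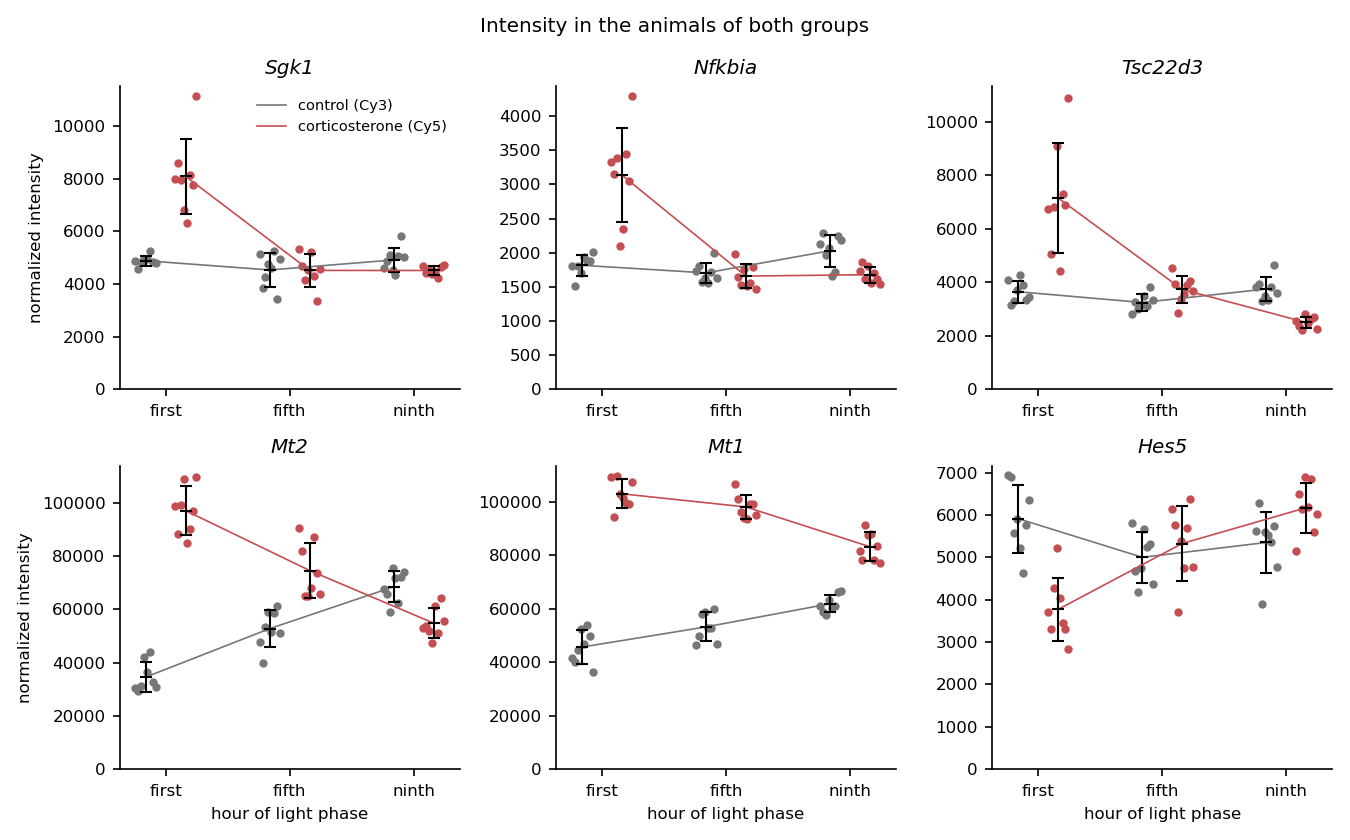
Normalized intensity (y axis, from 0) in control (grey) and corticosterone-treated animals (red) by hour of the light phase (x axis) for 6 probes; points are animals, bars are the mean ± SD of 8 animals, and lines join the means. In *Sgk1* and *Nfkbia* the treated animals overlap the control animals in the fifth hour with a mean log2 ratio near 0 (-0.0050 and -0.042). In *Tsc22d3* they come down but stay higher on 7 of 8 arrays (mean log2 ratio 0.20). In *Mt2* both groups approach each other, and in *Mt1* (bright probe) they stay apart. In *Hes5* the treated animals come up and the control mean comes down.

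The remaining genes with a negative difference have less uniform roles. *Arl4d*, which codes a small GTPase of the ARF family, went from a log2 ratio of 1.03 to 0.23 (difference -0.80 ± 0.13, adjusted p = 0.000115) and stayed at 0.22 in the ninth hour. *Cmtm3*, a gene of the chemokine-like factor family, went from 0.98 to 0.39 (difference -0.58 ± 0.12, adjusted p = 0.0153). *Fzd4* codes a Wnt and norrin receptor of brain vessels, and its difference was -0.42 ± 0.091 (adjusted p = 0.0304). Another *Fzd4* probe gave -0.37 ± 0.11 (adjusted p = 0.522). *B4galt1*, which codes a galactosyltransferase, had a difference of -0.43 ± 0.094 (adjusted p = 0.0427). Of these, *Arl4d* kept its call in all alternatives, *B4galt1* kept it in 8 of 16 and *Fzd4* in 9 of 16. *Cmtm3* lost its call without slide 2, without slide 3 or in a fit of the 16 arrays alone. The highest adjusted p (limma) over all alternatives was 0.999966 for *B4galt1*, for *Fzd4* and for *Cmtm3*. The calls of *B4galt1* and *Fzd4* were lost without slide 1 or slide 3 (and without slide 2 for *B4galt1*), and with all arrays also with an offset of 0, the processed signals, a test of the log ratio per array or the authors' log2 ratios, and in a fit of the 16 arrays alone.

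A probe named *Pip5k1a*, a gene of phosphoinositide synthesis, gave values unlike those of the other probes of that gene. It went from 1.25 to 0.53 without overlap of the arrays (difference -0.72 ± 0.12, adjusted p = 0.000656). The other *Pip5k1a* probes had first-hour log2 ratios of 0.036 and 0.29 and differences of -0.022 ± 0.060 and -0.12 ± 0.15. The differences between these probes were not tested. Leaving out slide 2 ended the call (highest adjusted p 0.199). *Gm11025*, a predicted gene, had an intensity of 52.2, and its control animals were well above background on 3 of 8 arrays in the first and 5 of 8 in the fifth hour (difference -0.75 ± 0.15, adjusted p = 0.0019). That call was lost without slide 2, without slide 3 or with the processed signals of the scanner software (highest adjusted p 0.358).

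*Hes5* was the single gene with an intensity of 50 or more whose difference was positive and significant. It codes a transcriptional repressor that acts downstream of Notch and maintains neural stem cells. Treated animals had intensities of 2846, 3579 and 5213 (lowest, median, highest) in the first and of 3703, 5542 and 6386 in the fifth hour, with control medians of 5832 and 4994. Treated animals were below control animals on 8 of 8 arrays in the first and above them on 6 of 8 in the fifth hour. From the first to the fifth hour *Hes5* changed by 0.50 ± 0.11 (SE, log2) in treated and by -0.24 ± 0.11 in control animals. The change in control animals was not significant. The difference was 0.74 ± 0.13 (adjusted p = 0.0019), and on slide 2 alone it was 0.23 against 1.18 and 0.97 on slides 1 and 3. The call was lost without slide 1 or slide 3 (highest adjusted p 1). A dimmer *Hes5* probe gave 0.59 ± 0.16 (adjusted p = 0.518). Of the 19 genes listed for Notch signalling and neural stem cells, *Hes5* alone was significant (1 of 22 probes, against 0.0389% of all), and the 18 with an intensity of 50 or more had a median difference of -0.0025, with 9 of them below 0. At an unadjusted p under 0.05, 5 of these 18 were higher and 2 were lower, against 2.02% and 2.45% of all probes. The stem cell genes *Fabp7* and *Sox2* had differences of 0.40 ± 0.12 and 0.38 ± 0.095 (adjusted p = 0.503 and 0.152). The frizzled receptor gene *Fzd2* and *Id4*, which codes an inhibitor of bHLH factors, went the other way with -0.44 ± 0.14 and -0.23 ± 0.077 (adjusted p = 0.627 and 0.655), and *Hes1*, a relative of *Hes5*, had a difference of -0.013 ± 0.14. The other probe with a positive difference, of *Trim38*, was at an intensity of 22.3 and well above background in 0 of the animals, so that its difference of 0.82 rests on values close to background.

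The 10 probes with the largest first-hour change were taken, given an intensity of 50 or more and 1 direction on 8 of 8 arrays. Of these, 0 had a significant difference (limma), against 0.0389% of all probes, and 5 had an unadjusted p under 0.05, against 4.47%. Nothing is read from these counts, because first-hour values chose the probes and enter the difference. *Plin4*, which codes a lipid droplet coat protein, went from a log2 fold change of 3.47 ± 0.19 (SE) to 2.53 ± 0.19, with 72.9% left (difference -0.94 ± 0.27, adjusted p = 0.192). *Cdkn1a* went from 2.06 to 1.10, with 53.5% left. *Map3k6*, a kinase gene of the stress-activated cascade, had differences of -0.90 ± 0.25 and -0.84 ± 0.22 with its 2 probes (adjusted p = 0.309 and 0.274). The bZIP factor gene *Maff* gave -0.64 ± 0.21 and *Xdh*, which codes xanthine dehydrogenase, -0.69 ± 0.41. On slide 1, with 2 arrays of each hour, the differences of *Plin4*, *Cdkn1a* and the brighter *Map3k6* probe were 0.084, 0.18 and 0.14, against -1.07, -1.48 and -1.20 on slide 3. *Sult1a1*, which codes a phenol sulfotransferase, displayed 2.09 and then 2.18, and the 95% interval of its difference was -0.22 to 0.39. The intervals of *Lao1*, an L-amino acid oxidase gene, and *Pla2g3*, a secreted phospholipase gene, were wider (-0.60 to 0.88 and -0.74 to 0.46), and a loss of the size seen for *Ddit4* lies inside the interval of each of these 2. Control animals were well above background for *Lao1* on 1 of 8 arrays in each of these hours and for *Maff* on 5 and 6 of 8, so these ratios rest partly on values close to background. Control means were 33.2 and 30.7 for *Lao1* and 48.9 and 49.4 for *Maff*, so both passed the intensity of 50 through treated animals.

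**Figure D4:**
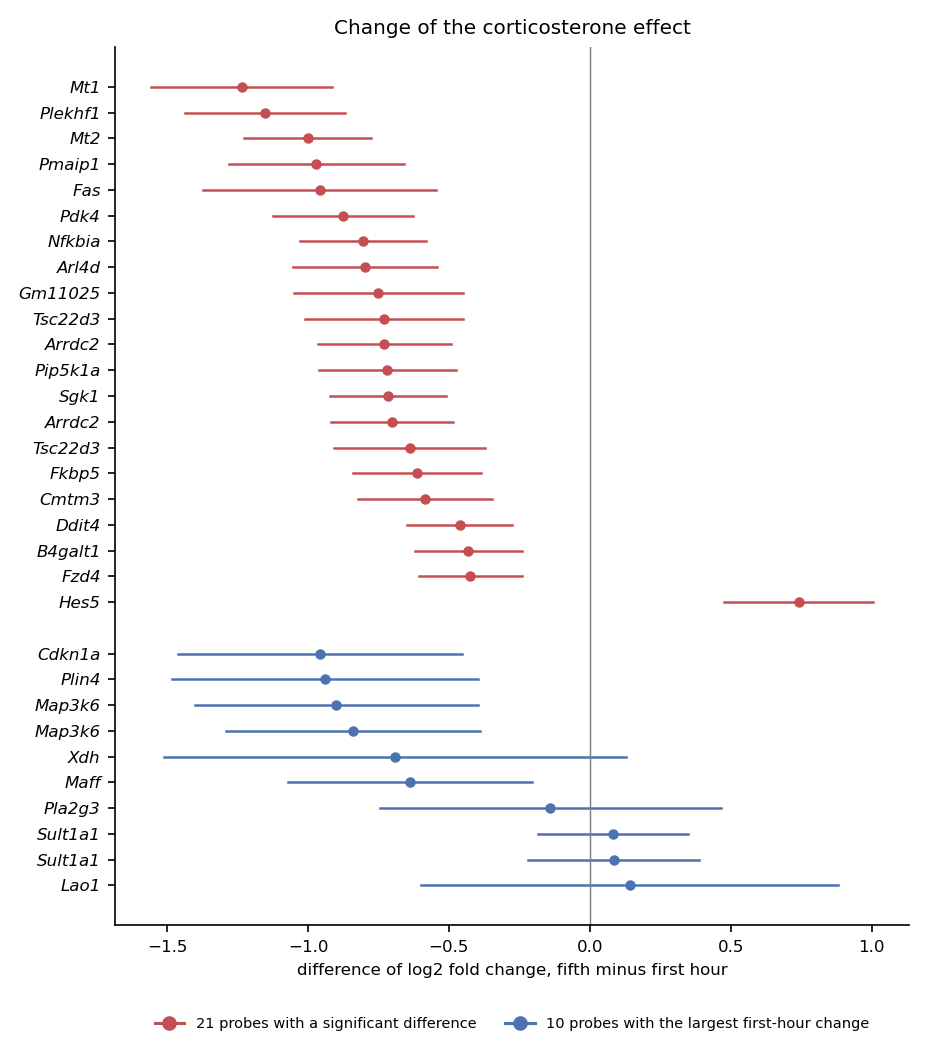
Difference of the log2 fold change, the fifth hour minus the first (x axis), with its 95% interval for the 21 named probes with a significant difference (red) and the 10 probes of an intensity of 50 or more with the largest first-hour change (blue); a gene listed more than once has several probes. Red intervals are clear of 0, whereas blue differences range from -0.96 (*Cdkn1a*) to 0.14 (*Lao1*), with the widest intervals for *Xdh* and *Lao1*.

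A broader view was taken over the 42 probes with an intensity of 50 or more, the same direction on all 8 arrays and a log2 fold change over 1 in either direction in the first hour. These probes were chosen on first-hour values, so the share of the response left in the fifth hour carries the errors of both hours and is given as a description. The share was up to 25% for 5 probes, over 25 and up to 50% for 9, over 50 and up to 75% for 13 and over 75% for 15, with a median of 60.9%. At the low end were *Depp1* (-6.84%), *Plekhf1* (-3.04%), *Arl4d* (22.4%), *Pmaip1* (23.3%) and the interferon-stimulated gene *Oas1a* (23.3%), which was lower in treated animals. At the high end were *Etnppl*, which codes ethanolamine-phosphate phospholyase (119.5%), *Opalin*, an oligodendrocyte gene that was lower in treated animals (118%), *Phyhd1*, a dioxygenase gene (114%), and the copper oxidase gene *Heph* (113% and 114% with its 2 probes). Of the 42 probes, 7 had a significant difference (*Mt2*, *Plekhf1*, *Arl4d*, *Pmaip1*, *Pip5k1a*, *Gm11025* and 1 *Tsc22d3* probe), against 0.0389% of all probes, and nothing is read from this count because first-hour values chose the probes and enter the difference. The other 14 significant probes with an intensity of 50 or more had first-hour log2 fold changes under 1 in size. *Gm11025* reached the intensity of 50 only through its treated animals.

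The study's list of genes whose effect reversed by the ninth hour was chosen on these animals and is no independent evidence of direction. The list used here holds the 7 bright genes of large change that the study names, not all probes that it calls reversed. Of these 7 genes, *Nfkbia*, *Fas* and the dimmer *Fkbp5* probe were significant, against 0.0389% of all probes. *Smim3*, a small membrane protein gene, had 17.7% of its first-hour value left (difference -0.51 ± 0.11, adjusted p = 0.0517), and *Fgfrl1*, a decoy receptor gene of fibroblast growth factors, went from -0.71 to -0.30 (difference 0.40 ± 0.093, adjusted p = 0.0796). *Paqr5*, a progestin receptor gene, and *Mc4r*, the melanocortin 4 receptor gene, had 54.8% and 53% left in the fifth hour, with differences of -0.38 ± 0.23 and -0.30 ± 0.17 that were not significant. In the ninth hour *Paqr5*, *Mc4r* and *Smim3* stood at -0.55, -0.63 and -0.35, on 8 of 8 arrays each. The short-lasting, intermediate and long-lasting lists are likewise the genes of large change named by the study, a small part of its calls. The short-lasting list held 5 significant genes among the 25 with a probe (*Plekhf1*, *Pdk4*, *Sgk1* and *Arrdc2* lower, *Hes5* higher), the intermediate list 1 among 28 (*Mt2*) and the long-lasting list 1 among 26 (the dimmer *Mt1* probe), again against 0.0389% of all probes. These lists too were drawn from the same animals, by how their effect moved between the hours, so their counts are no independent evidence. Their median differences were -0.42, -0.17 and 0.0031.

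Of 46 genes listed as induced by glucocorticoids, 10 had a significant probe, all lower, and 8 by their brightest probe. By probes this was 12 of 63, where 0.0353% of all probes were significant in that direction. This list, like the other gene lists, was chosen with earlier results of these data known, so its counts are no independent evidence. Its member *Sox2* was lower in treated animals on 8 of 8 arrays of the first hour (-0.48). The brightest probes of the 45 with an intensity of 50 or more had a median difference of -0.25, and 40 of them were below 0. Other well-known targets had a difference near 0. *Per1*, a clock gene with a glucocorticoid response element, gave -0.070 ± 0.068, *Zbtb16*, a zinc finger repressor gene, 0.011 ± 0.10, *Dusp1*, a MAP kinase phosphatase gene, -0.084 ± 0.13 and *Fam107a*, a cytoskeletal gene of stress, -0.041 ± 0.10, and none of these was significant. *Zbtb16* and *Fam107a* had log2 ratios of 0.26 and 1.01 in the fifth hour, close to 0.25 and 1.05 in the first. The study names *Zbtb16* among its secondary effects, which were not significant in the first hour. For *Per1* and *Dusp1* the difference alone does not tell a kept response from the lack of a first-hour response.

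Of the 29 probes of interferon-stimulated genes 0 were significant (limma), against 0.0389% of all probes, and the list as a whole was not tested. Of the 21 genes with an intensity of 50 or more, 20 had a positive difference, with a median of 0.39. The median log2 ratio was -0.57 in the first and -0.11 in the fifth hour. *Oas1a*, *Cxcl10* and *Irf7*, which code an RNA sensor, a chemokine and a master factor of the interferon response, had the largest values at 0.78 ± 0.42, 0.74 ± 0.41 and 0.71 ± 0.46 (SE). For all 21 the unadjusted p was above 0.05, and their standard errors reached 0.46, against a median of 0.11 over all probes of that intensity. These genes answer to a common pathway, so the 21 are not independent of each other. Clock genes and activity-dependent immediate early genes had median differences of 0.0063 and 0.035. Each list held 0 significant members (limma), against 0.0389% of all probes, and 1 at an unadjusted p under 0.05, against 4.47%.

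**Figure D5:**
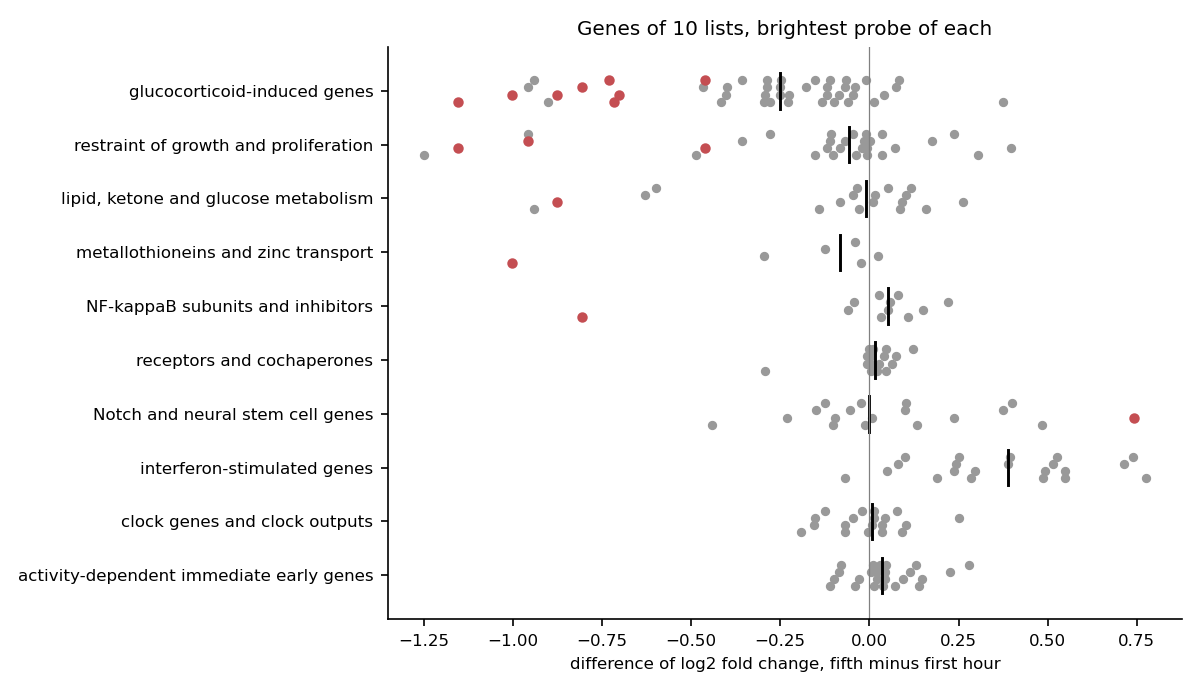
Difference of the log2 fold change, the fifth hour minus the first (x axis), of the brightest probe of each gene with an intensity of 50 or more in 10 lists (y axis); red points are significant and black bars are medians. Glucocorticoid-induced genes lie mostly below 0 with a median of -0.25, interferon-stimulated genes mostly above it with a median of 0.39, and the remaining medians lie near 0.

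Among markers of the cell types the tissue could hold, 0 probes in 10 lists were significant (limma), against 0.0389% of all probes. Of the brightest probes of the lists 5 had an unadjusted p under 0.05, against 4.47% of all probes. The median differences of the lists ran from -0.10 (7 oligodendrocyte markers) to 0.14 (7 endothelial markers). Summed endothelial markers were 8131 to 11233 in treated and 11546 to 13793 in control animals of the first hour, without overlap, and 9712 to 12107 and 11859 to 14689 in the fifth, with overlap. The channels carry different dyes. Of the 7 endothelial markers 6 had a positive difference, opposite in sign to that of *Fzd4* and *Slc2a1*. All 7 astrocyte markers (-0.16 to -0.058) and all 7 oligodendrocyte markers (-0.23 to -0.022) had a negative difference, the sign of most significant probes, and 0 of these 14 reached an unadjusted p under 0.05. *Kdr* and *Cldn5*, which code a VEGF receptor and a tight junction protein, had 0.33 ± 0.11 and 0.25 ± 0.10 (adjusted p = 0.704 and 0.891). The part of these marker lists in the differences of *Slc2a1*, *Fzd4* and the other significant genes was not tested.

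Restricting the test to the 32033 probes with an intensity of 50 or more gave 44 significant probes (0.137% of those tested), 36 lower (0.112%) and 8 higher (0.025%), which included the 21 above. Named after their values were seen, the further probes with a negative difference included those of *Depp1* (-1.25), *Cdkn1a* (-0.96), *Tcim* (-0.76), a regulator of Wnt signalling, *Slc2a1* (-0.60), *Smim3* (-0.51), *Stat5a* (-0.54), which codes a transcription factor of cytokine signals, *Txnip* (-0.47), the thioredoxin inhibitor gene, and *Dio2* (-0.36), the gene of the enzyme that activates thyroid hormone. Further probes with a positive difference included those of *Cdc42ep1* (0.47), *Meox1* (0.47), *Fgfrl1* (0.40), *Sox2* (0.38), *Etv4* (0.36) and *Zfp36l2* (0.35), the last of which codes a protein that hastens mRNA decay. The fifth-hour log2 ratio was nearer to 0 than that of the first hour for all of these except *Etv4*, *Zfp36l2* and *Stat5a*, which went from -0.12 to 0.24, from -0.17 to 0.18 and from 0.25 to -0.28.

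The promoter windows of the significant genes were compared with all 32851 windows of the RefSeq table. Of the 19 genes, 17 had a window (24 windows in all). A full glucocorticoid response element (GNACA and TGTNC with 3 bases between, both strands) was in 2 of these 24 windows (*Mt1* and *Sgk1*), and in 0.475% of all windows. Its half-site (AGAACA, both strands, part of some full elements) was in 5 of the 24 windows (*Fzd4*, *Sgk1*, *Tsc22d3*) and in 19% of all. The metal response core (TGCACNC or TGCGCNC, both strands) was in 6 of the 24 windows and in 25.7% of all, and 4 or more matches, as in *Mt2*, were in 0.517% of all. An NF-κB site (GGGAN followed by TTTCC, both strands) was in 1 of the 24 windows, that of *Nfkbia*, a gene that NF-κB itself induces, and in 0.411% of all, and its match is shown in capitals. A match is a description of letters in a window and not a site shown to be bound.
Nfkbia promoter, chr12:55492598-55492897, minus strand: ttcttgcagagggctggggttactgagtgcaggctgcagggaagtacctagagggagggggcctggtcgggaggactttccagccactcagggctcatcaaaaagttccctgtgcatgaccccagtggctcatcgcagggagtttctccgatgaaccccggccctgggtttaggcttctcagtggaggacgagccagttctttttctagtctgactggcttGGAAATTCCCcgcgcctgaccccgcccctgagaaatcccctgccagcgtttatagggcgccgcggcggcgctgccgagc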

How the data were processed

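Hippocampal RNA of 48 mice was measured on 24 two-color Agilent arrays, on 3 slides with all hours on each. The authors deposited scanner files, in which a spot has a median intensity and a median local background intensity per dye, plus the intensity processed by the scanner software, and flags in other units (1 for an outlier or for a signal well above background). They also deposited a table of log2 ratios. That table matched ratios made here with normexp and loess within a median absolute difference of 0.00121, which fixed Cy5 (corticosterone) over Cy3 (control) as its direction.

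Following the study's methods, median intensities were background-corrected with normexp, normalized with loess within arrays and quantile between arrays, and tested with a separate channel model in limma 3.58.1 (R 4.3.3), fitted to 24 arrays and 6 groups with an intraspot correlation of 0.279. The limma function for this model takes no missing values, so its equations were applied probe by probe. P-values came from data with an offset of 50, and fold changes, standard errors and 95% intervals from data without an offset, so an interval and its p can differ slightly. P-values were adjusted (Benjamini-Hochberg) over 56605 probes, with a threshold of 0.05, and they measure the spread between these animals. Control spots were left out, and outlier spots were set to missing before copies of a probe were averaged, after which 77 probes lacked a value on at least 1 array. The scripts were tested on simulated data.

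Genes were named through RefSeq accessions (34566 probes) and the study's annotation (269 probes), and the rest stayed unnamed. Named in the text are significant probes with a mean intensity of 50 or more, the 10 probes of that intensity with the largest first-hour change in the same direction on 8 arrays, the study's list of reversed effects, and members of gene lists, by their brightest probe. The members and lists were chosen with earlier results of these data known. Alternatives covered the offset, background, normalization, signal source, filters, test, arrays, slide and outlier spots. Python 3.11.15 was used for tables and plots.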

Additional observations from a re-analysis of the deposited data

Results flagged for a closer look

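The corticosterone effect differed between the first and the fifth hour by the test of the difference itself for 21 named probes (limma, adjusted p under 0.05). The log2 difference was -1.24 for the dimmer *Mt1* probe, -1.15 for *Plekhf1*, -1.0 for *Mt2*, -0.97 for *Pmaip1*, -0.96 for *Fas* and -0.88 for *Pdk4*. It was -0.81 for *Nfkbia*, -0.80 for *Arl4d*, -0.75 for *Gm11025*, -0.73 and -0.70 for the *Arrdc2* probes, -0.73 and -0.64 for the *Tsc22d3* probes, -0.72 for *Pip5k1a* and -0.72 for *Sgk1*. It was -0.61 for *Fkbp5*, -0.58 for *Cmtm3*, -0.46 for *Ddit4*, -0.43 for *B4galt1* and -0.42 for *Fzd4*, and 0.74 for *Hes5*.

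In 5 of 74 groups of 8 arrays, 1 array stood apart from the rest by Dixon's criterion, and chance gives about 1 in 20 such groups. All lay in the first hour. Replicate 5, on slide 2, had the lowest log2 ratio of *Plekhf1* (0.31) and of both *Arrdc2* probes (0.13 and 0.064). Replicate 4 had the lowest ratio of *Gm11025* (0.69), and replicate 8, on slide 3, had the highest ratio of *Ddit4* (1.04).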

How the results depend on the processing

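All 21 named probes kept the sign of their difference in all 16 alternatives, and 6 of them (the dimmer *Mt1* probe, *Plekhf1*, *Mt2*, *Pdk4*, *Arl4d* and *Sgk1*) stayed significant in each. All or part of the arrays that chose these probes enter each alternative, so a kept sign is a description. Of the 16, an offset of 50 for the fold changes left the p-values as they were, so 15 could change a call. Slide 3 mattered most. Without it 7 of the 22 significant probes were left, 7 lower and 0 higher, against 12 of the 21 named probes without slide 2 and 16 without slide 1. Restricting the test to intensities of 50 or more gave 44 significant probes (36 lower, 8 higher), and to probes well above background in both channels of 8 arrays 39 (34 lower, 5 higher). Fitting the 16 arrays of both hours alone gave 13 lower probes, and the processed signals gave 1 higher probe. In corticosterone-treated animals the count of 309 became 200 with an offset of 0, 184 with 16 arrays, and 150, 114 and 49 without slides 1, 2 and 3. In control animals the count of 3 became 1 with an offset of 0, 10 with processed signals, 1 with 16 arrays, 1 without slide 1 and 0 without slide 3. The cause of these shifts was not tested beyond the fewer probes tested or arrays fitted. No paired analysis was possible because the replicate numbers of different hours name different animals, although both animals of an array entered the fit as a pair. The number of arrays and, for *Gm11025*, *Trim38*, *Lao1* and *Maff*, signals close to background limit the precision.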
